A study of Homo sapiens and Mus musculus with 13 samples.

Results

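The genes described here make cholesterol and fatty acids. The 31 human members were 14 enzymes of the cholesterol branch, 14 enzymes or helpers of the fatty acid branch, and 3 regulators that serve both branches (INSIG1, SREBF1 and SREBF2). They were chosen by name from 24523 human symbols. In the mouse table the same rule gave 32 members of 55228 symbols, because Scd1 and Scd2 both stand for human SCD, and the mouse form of CYP51A1 was listed as Cyp51. At a mean of at least 0.5 FPKM (fragments scaled to transcript length and library size), 30 of 31 human and 32 of 32 mouse members were tested. The untested one was THRSP, listed at 0 in every cell line except the library labelled KDM5C-KD1 (0.0551 FPKM).

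Cells make cholesterol from acetyl-CoA through mevalonate, farnesyl diphosphate, squalene and lanosterol, and they make fatty acids from the same acetyl-CoA through malonyl-CoA. The transcription factors SREBP1 and SREBP2, encoded by SREBF1 and SREBF2, sit in the endoplasmic reticulum as inactive precursors. When sterols run low they are carried to the Golgi and cut, and the released part enters the nucleus and turns on most of the genes below, while INSIG1 holds the precursors back. In the mammary gland the fatty acid branch serves milk fat, and adipocytes of the gland use the same enzymes.

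The cell line data came from MDA-MB-231, a human triple-negative breast cancer line, infected with lentivirus carrying Cas9 and a guide RNA (sgRNA) and selected with puromycin. Control received an sgRNA against GFP (1 line). TRIM11-KD received TRIM11-sgRNA1 or -sgRNA2 (2 lines), KDM5C-KD received KDM5C-sgRNA1 or -sgRNA2 (2 lines), and the double knockdown, DKD, received TRIM11-sgRNA1 or -sgRNA2 together with KDM5C-sgRNA2 in both lines. Each line was an infected population sequenced as 1 library, so the 2 lines of a group differed in guide as well as in culture. TRIM11 is a ubiquitin ligase and KDM5C a histone H3K4 demethylase. The question was how loss of either, or of both, moved gene expression.

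The mouse data came from mammary tumors of 3-month old hybrids of C57BL/6N and the FVB/N strain that carries polyoma middle T antigen (MMTV-PyVT). All 6 animals carried this transgene, which the mouse mammary tumor virus promoter drives mainly in mammary epithelium. There were 3 wild-type (WT) tumors and 3 from Trim11+/- animals, in which Cas9 had deleted exons 2 to 6 of 1 Trim11 allele in all cells. The labels number the strain from 634 in the first WT animal to 639 in the last Trim11+/- animal.

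FPKM summed to 493543 to 513462 per cell line library and 317659 to 330196 per tumor, and the depth of the cell line libraries is unknown. The tumor values gave back whole reads (within 0.01) for 98.8% of 28794 genes, at 8793199 to 11117125 reads per tumor. VIM (1038 to 1309 FPKM), CD44 and EGFR were present in every cell line, while PGR was at 0 and ESR1 at most 0.0234 FPKM. CDH1, also listed as low in this line, was 0.615 to 1.98 FPKM. ERBB2, listed as low too, was present in every cell line at 17.8 to 23.7 FPKM. Epcam was 408 to 493 FPKM in the tumors. KDM5C was 30.3 FPKM in Control and 18.8 to 22.7 FPKM in the 4 lines with a KDM5C guide. TRIM11 was 12.6 FPKM in Control but 13.4 FPKM in the library labelled TRIM11-KD1 and 16.1 FPKM in the library labelled DKD1, so the TRIM11 labels of those 2 libraries are not borne out by its mRNA. The paper checked its knockdown lines at the protein level, by western blotting, and the mRNA values do not measure that. Trim11 was 35.8 to 39.2 FPKM in WT and 22.8 to 24.0 FPKM in Trim11+/- tumors.

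The promoters of the human members shared a short sequence that the choice of members did not use. RefSeq promoter windows (GRCh38.p14, 250 bases before to 50 after each start) were given for 28 of the 31 members, not for FASN, SQLE and FDFT1. CCAAT, the box that the factor NF-Y binds, was present on either strand in 22 of these 28 genes (78.6%), against 39.7% of all 27305 genes with a window. At least 2 such boxes were present in 14 of the 28, against 12.9% of all genes. GGGCGG, the core of a GC box, was present in 25 of 28 (89.3%), against 48.3% of all genes. The classical sterol regulatory element TCACNCCAC was present only in SREBF2 among the 28 (3.57%, against 1.39% of all genes), and other forms of the element were not searched. None of the 3 motifs contains another. The 27305 genes were not limited to those expressed in these cell lines, whereas nearly all members were expressed there. Whether the members differ in these motifs from other expressed genes was not tested. Members that varied between cell lines did not all hold CCAAT. In PMVK the highest library was 2.00 times the lowest, more than in MVK (1.89 times) and ACSL3 (1.76 times). Its window held GGGCGG but no CCAAT. ACACB (2.51 times) and FADS2 (1.89 times) held CCAAT but were left out of the choice of stretches. The stretches come from SREBF2, which holds the sterol element beside a CCAAT box, and from EBP, MVK, SCD and ACSL3. Those 4 were picked from members that hold CCAAT and varied between cell lines. Capitals mark CCAAT (or ATTGG, its other strand) and, in SREBF2, the sterol element. All lie before the start on the + strand, on chr22:41832962-41833013 (SREBF2), chrX:48521607-48521792 (EBP), chr12:109573574-109573762 (MVK), chr10:100346994-100347061 (SCD) and chr2:222860951-222860975 (ACSL3).
SREBF2: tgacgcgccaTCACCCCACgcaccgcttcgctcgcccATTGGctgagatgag
EBP: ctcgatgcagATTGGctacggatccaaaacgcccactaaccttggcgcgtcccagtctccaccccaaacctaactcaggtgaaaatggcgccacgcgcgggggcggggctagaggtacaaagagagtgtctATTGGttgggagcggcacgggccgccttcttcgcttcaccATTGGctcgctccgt
MVK: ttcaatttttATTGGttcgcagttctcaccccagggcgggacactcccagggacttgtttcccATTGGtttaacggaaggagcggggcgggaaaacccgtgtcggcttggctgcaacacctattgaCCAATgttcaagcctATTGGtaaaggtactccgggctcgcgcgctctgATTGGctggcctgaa
SCD: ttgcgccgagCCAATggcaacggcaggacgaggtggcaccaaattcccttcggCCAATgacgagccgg
ACSL3: cgctcgcgggCCAATgggtggcagc

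In the cell lines SCD was the most abundant member and the transcription factors were among the steadiest. SCD, the desaturase that puts the first double bond into stearate, averaged 242 FPKM over the 7 libraries. FDPS, ACLY and ELOVL5 followed between 101 and 116 FPKM, and ACACB, the mitochondrial acetyl-CoA carboxylase, was lowest of the 30 tested at 0.722 FPKM. The highest library was less than 1.5 times the lowest in 13 of 30 members (43.3%, against 42.2% of all genes tested), and at least 2 times the lowest in 3 of 30 (10%, against 27.2%). Those 3 were ACACB (2.51 times), SCD (2.44 times) and EBP (2.27 times). The steadiest member was ACLY, which makes cytosolic acetyl-CoA from citrate (1.13 times).

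**Figure D1:**
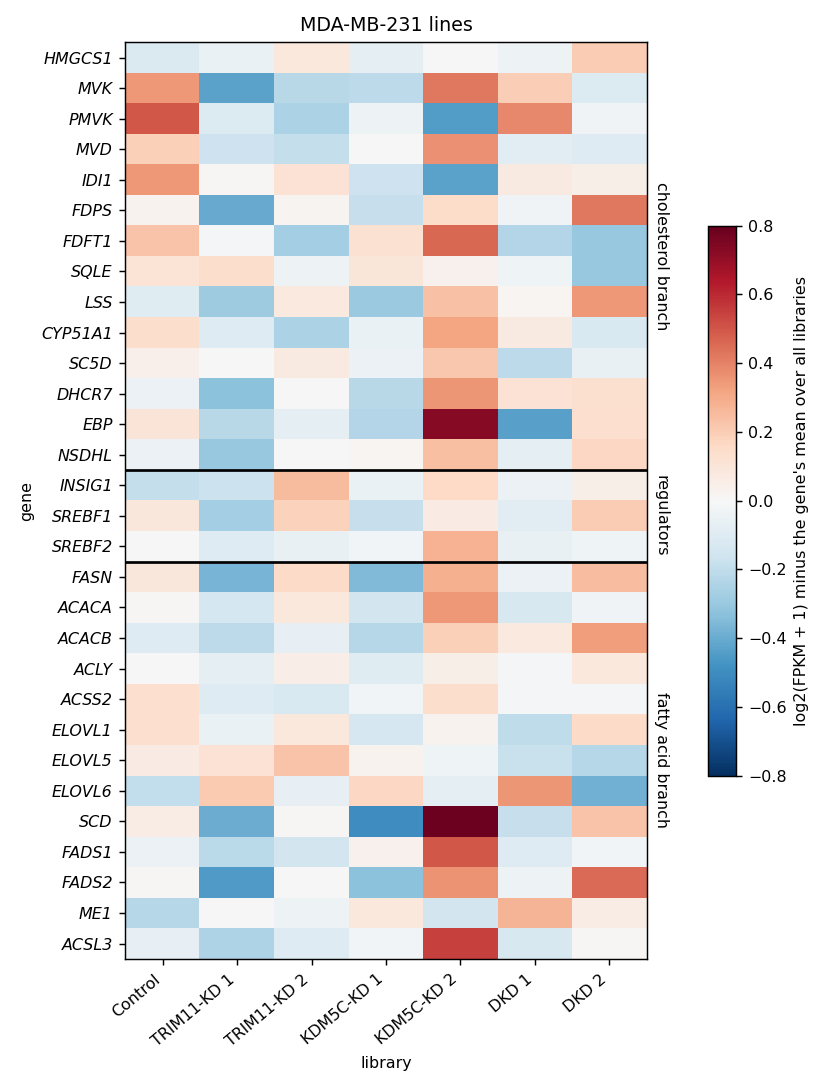
Difference of log2(FPKM + 1) of each tested human member from its mean over the 7 MDA-MB-231 libraries, with genes in rows by branch and libraries in columns. The column of KDM5C-KD line 2 is red for most genes, with exceptions such as PMVK and IDI1, and the column of TRIM11-KD line 1 is mostly blue.

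The library labelled KDM5C-KD2 stood apart. It was the highest of the 7 for 15 of 30 members (50%), whereas it was highest for 24.3% of all genes tested. The library labelled TRIM11-KD1 was the lowest for 10 of 30 members (33.3%), against 14% of all genes. The median difference from the 7-library mean was 0.24 (log2) in KDM5C-KD2 for the cholesterol branch and 0.19 for the fatty acid branch, while the median of all genes there was 0.01. In TRIM11-KD1 it was -0.14 in both branches. In the library labelled KDM5C-KD1 it was -0.06 in the cholesterol branch and -0.10 in the fatty acid branch, so the 2 KDM5C-KD lines lay on opposite sides of the mean.

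Among the regulators, SREBF2 was 48.7 FPKM in Control, 45.5 and 46.9 FPKM in TRIM11-KD, 48.3 and 59.5 FPKM in KDM5C-KD, and 46.9 and 47.8 FPKM in DKD. The 3 libraries without a TRIM11 guide were all above the 4 with one, and 5 of those 7 values lay within 45.5 to 48.3 FPKM. SREBF1, which favours the fatty acid branch, was 54.5 FPKM in Control, 42.2 and 58.2 FPKM in TRIM11-KD, 44.8 and 53.6 FPKM in KDM5C-KD, and 48.0 and 59.0 FPKM in DKD. Line 2 was above line 1 in every group, and the groups overlapped. INSIG1 was 63.2 FPKM in Control, 64.1 and 86.4 FPKM in TRIM11-KD, 69.5 and 80.8 FPKM in KDM5C-KD, and 69.8 and 74.6 FPKM in DKD, with Control lowest.

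In the cholesterol branch HMGCS1, which joins acetoacetyl-CoA and acetyl-CoA, was 8.28 FPKM in Control, 8.68 and 9.62 FPKM in TRIM11-KD, 8.54 and 8.99 FPKM in KDM5C-KD, and 8.74 and 10.6 FPKM in DKD. SQLE, the squalene epoxidase, was 11.95 FPKM in Control, 12.2 and 10.6 FPKM in TRIM11-KD, 11.8 and 11.3 FPKM in KDM5C-KD, and 10.7 and 8.72 FPKM in DKD. HMGCS1 was lowest in Control, and the SQLE values of the groups overlapped. MVK and PMVK, the kinases that phosphorylate mevalonate in turn, spread wider and in unlike patterns. MVK was 17.1 FPKM in Control, 9.56 and 11.2 FPKM in TRIM11-KD, 11.3 and 18.1 FPKM in KDM5C-KD, and 15.3 and 12.2 FPKM in DKD. PMVK was 27.0 FPKM in Control, 17.4 and 15.7 FPKM in TRIM11-KD, 18.3 and 13.5 FPKM in KDM5C-KD, and 24.9 and 18.4 FPKM in DKD. Control was the highest library for PMVK and KDM5C-KD2 the lowest, whereas KDM5C-KD2 was the highest for MVK. EBP, an isomerase late in the pathway, was 70.4 FPKM in Control, 56.0 and 62.3 FPKM in TRIM11-KD, 55.5 and 109 FPKM in KDM5C-KD, and 48.2 and 71.9 FPKM in DKD, so 1 library lay well above the rest.

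In the fatty acid branch FASN, the synthase that builds palmitate, was 95.3 FPKM in Control, 69.0 and 99.6 FPKM in TRIM11-KD, 69.8 and 110 FPKM in KDM5C-KD, and 86.8 and 106 FPKM in DKD. SCD was 242 FPKM in Control, 176 and 234 FPKM in TRIM11-KD, 165 and 401 FPKM in KDM5C-KD, and 204 and 273 FPKM in DKD. Both genes were higher in line 2 than in line 1 of each group, and within KDM5C-KD the 2 lines held the lowest and the highest SCD value of all 7. FADS2, a desaturase of polyunsaturated fatty acids, was 80.9 FPKM in Control, 58.2 and 80.1 FPKM in TRIM11-KD, 63.7 and 103 FPKM in KDM5C-KD, and 77.9 and 110 FPKM in DKD. ACSL3, which activates fatty acids at lipid droplets, was 31.9 FPKM in Control, 28.1 and 31.1 FPKM in TRIM11-KD, 33.0 and 49.5 FPKM in KDM5C-KD, and 30.6 and 33.8 FPKM in DKD. For ACSL3 the 6 libraries other than KDM5C-KD2 lay within 28.1 to 33.8 FPKM.

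**Figure D2:**
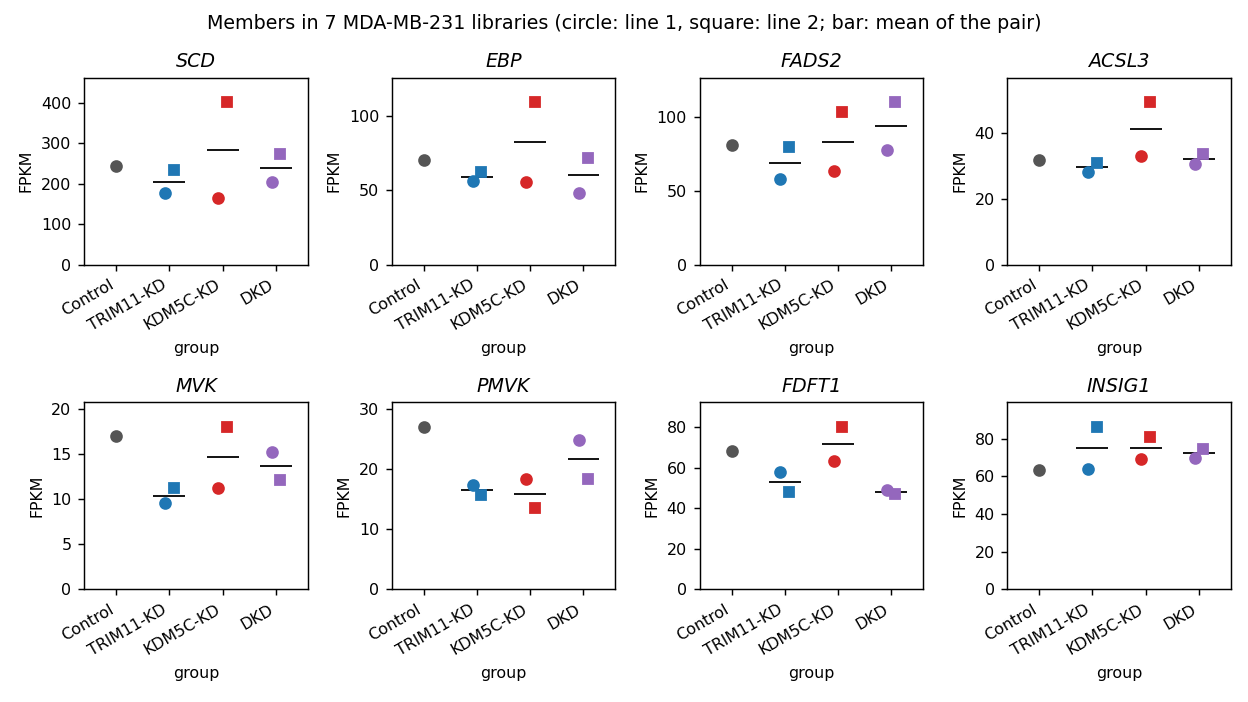
FPKM of 8 members in the 7 MDA-MB-231 libraries, by group, on axes that start at 0, with circles for line 1, squares for line 2 and a bar at the mean of a pair (Control has 1 library). KDM5C-KD line 2 is highest for SCD, EBP, ACSL3, MVK and FDFT1 and lowest for PMVK.

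The members differed more between the 2 KDM5C-KD lines than between the lines of the other groups. KDM5C-KD2 was above KDM5C-KD1 for 24 of 30 members (80%, against 51.1% of all genes tested), with a median log2 ratio of 0.34 in the cholesterol branch, 0.47 in the fatty acid branch and 0.01 over all genes. The lines were at least 1.5 times apart for 7 of 30 members (23.3%, where 17.2% of all genes were called): SCD (2.44 times), ACACB (2.06 times), EBP (1.97 times), FADS2, MVK, FASN and DHCR7. All 7 were higher in KDM5C-KD2. The 2 TRIM11-KD lines were 1.5 times apart for 0 of 30 members, where 13.7% of all genes were called. In direction they were closer to the KDM5C-KD pair, with TRIM11-KD2 the higher for 22 of 30 (73.3%, against 49.5% of all genes). The 2 DKD lines were 1.5 times apart for 1 of 30, ELOVL6 (50.1 FPKM in DKD1 and 29.8 FPKM in DKD2), where 16.6% of all genes were called. DKD2 was the higher for 19 of 30 (63.3%, against 51.3% of all genes). Both DKD lines carry KDM5C-sgRNA2, as KDM5C-KD2 does. Of those 7 members, 0 were higher in DKD1 than in KDM5C-KD2, and 2 were higher in DKD2 than in KDM5C-KD2, ACACB (1.154 against 0.947 FPKM) and FADS2 (110 against 103 FPKM). Because the 7 were picked by a gap in which KDM5C-KD2 was the higher line, lower values elsewhere follow in part from that choice. A pair of single libraries carries no test, and what else differed between them was not tested.

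Lines with a KDM5C guide (4) were compared with lines without one (3) in a limma fit that held the TRIM11 guide as a second term, on log2(FPKM + 1), a scale that understates changes of low genes. A gene counted as called with an unadjusted p under 0.05 and a change of at least 1.5-fold. Each line gave 1 library, and guide and culture cannot be told apart within a group, so p-values measure only the spread between these samples. By that rule 0 of 30 members were called, where 2.13% of all genes were. At an unadjusted p under 0.05 alone 1 of 30 passed, where 11.1% of all genes passed, and 0 had a limma adjusted p under 0.05. The 1 gene was ELOVL5, an elongase of polyunsaturated fatty acids. It was 105 FPKM in Control, 109 and 118 FPKM in TRIM11-KD, 102 and 97.9 FPKM in KDM5C-KD, and 88.7 and 85.5 FPKM in DKD. It was lower with the guide by -0.25 ± 0.10 (log2, SE; limma adjusted p = 0.427), and it was the 1 member of 30 whose 2 sides did not overlap (3.33%, against 10.7% of all genes). It lost its unadjusted p without TRIM11-KD1, TRIM11-KD2, DKD1 or DKD2, after which 0 members passed, and without KDM5C-KD1 2 members passed. In these left-out fits 5.85% to 11.7% of all genes passed. The median change was 0.06 in the cholesterol branch (0.024 without DKD2 to 0.14 without KDM5C-KD1) and 0.08 in the fatty acid branch (0.015 without KDM5C-KD2 to 0.17 without TRIM11-KD2). For SCD the change was 0.16 ± 0.30 and for FASN 0.08 ± 0.20, smaller than their errors.

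Lines with a TRIM11 guide (4), of which the libraries labelled TRIM11-KD1 and DKD1 did not have less TRIM11 mRNA, were compared with the 3 without one in the same fit. Again 0 of 30 members were called, where 3.02% of all genes were. At an unadjusted p under 0.05 alone 2 of 30 passed, where 10.7% of all genes passed, and both were lower with the guide. FDFT1, the squalene synthase at the entry to the sterol branch, was 68.1 FPKM in Control, 57.6 and 47.9 FPKM in TRIM11-KD, 63.0 and 80.1 FPKM in KDM5C-KD, and 49.0 and 46.7 FPKM in DKD. All 4 values with the guide lay below the 3 without it, and the change was -0.48 ± 0.12 (limma adjusted p = 0.448). MVD, which makes isopentenyl diphosphate, was 21.6 FPKM in Control, 16.6 and 16.3 FPKM in TRIM11-KD, 18.7 and 24.5 FPKM in KDM5C-KD, and 17.6 and 17.4 FPKM in DKD, a change of -0.31 ± 0.11 (limma adjusted p = 0.448) with no overlap. With SREBF2 this made 3 of 30 members without overlap (10%, against 8.75% of all genes). Without KDM5C-KD1 8 members passed the unadjusted p, where 10.2% of all genes passed, and without TRIM11-KD2, KDM5C-KD2 or DKD2 1 did (5.80% to 13.1% of all genes over the left-out fits). The median change was -0.11 in the cholesterol branch (-0.064 without KDM5C-KD2) and -0.03 in the fatty acid branch (-0.19 without KDM5C-KD1, 0.046 without KDM5C-KD2).

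The 3 knockdown groups were compared in a fit over their 6 libraries, again with the libraries labelled TRIM11-KD1 and DKD1 among those carrying a TRIM11 guide. Between KDM5C-KD and TRIM11-KD 0 of 30 members were called (4.25% of all genes) and 3 had an unadjusted p under 0.05 (9.82% of all genes). FDFT1 was higher in KDM5C-KD by 0.43 ± 0.16 and FADS1, the partner desaturase of FADS2, by 0.45 ± 0.17, while IDI1, the isopentenyl diphosphate isomerase, was lower by -0.36 ± 0.13 (limma adjusted p = 0.494 to 0.501). FADS1 was 63.9 and 67.2 FPKM in TRIM11-KD and 76.3 and 106 FPKM in KDM5C-KD. IDI1 was 44.4 and 47.9 FPKM in TRIM11-KD and 39.4 and 32.6 FPKM in KDM5C-KD. The KDM5C-KD1 library decided this count. Without it 6 members were called higher in the remaining KDM5C-KD library (SCD, EBP, MVK, ACSL3, FADS1 and FDFT1), where 10.8% of all genes were called, with log2 changes of 0.60 to 0.98 and limma adjusted p of 0.154 to 0.228. That fit assumes the lone library varies like the others, and 11 members then had an unadjusted p under 0.05, where 17.0% of all genes had. Without TRIM11-KD1 1 member passed it, and without TRIM11-KD2, KDM5C-KD2, DKD1 or DKD2 0 did. The median of the fatty acid branch, 0.12 with all libraries, was 0.33 without KDM5C-KD1 and -0.09 without KDM5C-KD2, and that of the cholesterol branch, 0.20, was 0.37 and 0.03.

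Between DKD and KDM5C-KD 0 of 30 members were called (5.65% of all genes) and 2 had an unadjusted p under 0.05 (11.7% of all genes), both from the cholesterol branch. FDFT1 was lower in DKD by -0.56 ± 0.16 and IDI1 higher by 0.36 ± 0.13 (limma adjusted p = 0.379 and 0.394). FDFT1 was therefore lower wherever a TRIM11 guide was present, with and without a KDM5C guide, although no adjusted p passed. KDM5C-KD1 again decided the count. Without it 4 members were called lower in DKD (SCD, EBP, ACSL3 and FDFT1) and PMVK was called higher, where 11.3% of all genes were called, and 9 had an unadjusted p under 0.05, where 17.2% of all genes had. Without DKD1 FDFT1 alone was called (7.47% of all genes), and without DKD2 PMVK alone (5.13% of all genes). The unadjusted p was passed by 0 members without KDM5C-KD2 and by 1 without TRIM11-KD1, TRIM11-KD2, DKD1 or DKD2. The cholesterol median, -0.07, was -0.22 without KDM5C-KD1 and 0.12 without KDM5C-KD2, and the fatty acid median, -0.06, was 0.08 without KDM5C-KD2 and 0.08 without DKD1.

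Between DKD and TRIM11-KD 0 of 30 members were called (2.30% of all genes), and 1 had an unadjusted p under 0.05 (7.03% of all genes). It was ELOVL5, lower in DKD by -0.37 ± 0.10 (limma adjusted p = 0.702). Without DKD1 FDPS was called higher (3.71% of all genes) and 2 members passed the unadjusted p, and without TRIM11-KD2 0 did (1.81% to 7.69% of all genes over the left-out fits). DKD and TRIM11-KD lines of the same number carry the same TRIM11 sgRNA. With that number as a replicate block 5 of 30 members had an unadjusted p under 0.05, where 12.2% of all genes had. FDPS, the farnesyl diphosphate synthase, was 86.8 and 117 FPKM in TRIM11-KD and 113 and 154 FPKM in DKD, which overlapped. The medians were 0.12 in each branch, and 0.073 and 0.048 without TRIM11-KD1. In all 3 pairwise comparisons SCD, FASN, SREBF1, INSIG1 and HMGCS1 differed by less than their standard errors, with SCD between -0.12 ± 0.41 and 0.34 ± 0.41.

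Against the 1 Control library a member counted, with no test, where both lines of a group were at least 1.5 times above or below Control. In TRIM11-KD, which includes the library labelled TRIM11-KD1, 2 of 30 members counted, MVK and PMVK, both lower, where 5.83% of all genes counted. MVK was 0.560 and 0.657 times and PMVK 0.642 and 0.579 times Control. In KDM5C-KD 0 of 30 counted (9.20% of all genes), while KDM5C-KD2 alone had 6 members that far from Control (24.5% of all genes) and KDM5C-KD1 alone had 1 (14.3% of all genes). In DKD 0 of 30 counted (10.6% of all genes), and 1 did in the line DKD2 alone (23.6% of all genes). The median log2 ratio to Control in the cholesterol branch was -0.24 in TRIM11-KD, 0.02 in KDM5C-KD and -0.23 in DKD, and 13 of its 14 genes were below Control in TRIM11-KD. Over all genes the median was -0.017, -0.013 and -0.012, and the share of all genes below Control is not given. Control was itself above the 7-library mean for 10 of the 14 cholesterol genes. In KDM5C-KD the cholesterol median was 0.18 without KDM5C-KD1 and -0.20 without KDM5C-KD2. In the fatty acid branch the medians were -0.11, 0.08 and 0.01, and these became 0.06 in TRIM11-KD without TRIM11-KD1 and -0.16 in KDM5C-KD without KDM5C-KD2. In DKD they were -0.19 and 0.082 without DKD1, and -0.14 and -0.060 without DKD2. All 3 comparisons share the Control library. A limma fit of 4 group means, added after seeing the data, takes the lone Control library to vary like the others. In it PMVK was called lower in TRIM11-KD by -0.68 ± 0.25 (limma adjusted p = 0.988), 1 of 30 members where 2.09% of all genes were called, and 1 of 30 passed the unadjusted p where 4.35% of all genes did. PMVK and IDI1 were called lower in KDM5C-KD (lowest limma adjusted p = 0.497), 2 of 30 where 5.31% of all genes were called, and the same 2 passed the unadjusted p where 9.00% did. In DKD 0 of 30 were called (6.13% of all genes), and FDFT1 passed the unadjusted p (10.1% of all genes) with limma adjusted p = 0.485.

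In the tumors Srebf1, one of the regulators grouped under both branches, was the most abundant of the 32 members (mean 231 FPKM). It was followed by Thrsp (214 FPKM), Scd1 (132 FPKM) and Scd2 (116 FPKM), all of the fatty acid branch. Thrsp, also called Spot 14, is a small nuclear protein of lipogenic tissues and a promoter of milk fat synthesis. The cholesterol enzymes lay lower, with Pmvk (27.1 FPKM) and Ebp (21.7 FPKM) highest. Fdps was listed at 0.514 to 1.06 FPKM, which was 22 to 48 reads, and is uncertain because near-identical copies can share its reads. The 2 tables were normalized separately, so human and mouse levels are not set against each other.

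These 3 Trim11+/- tumors had more Thrsp than these 3 WT tumors. Thrsp (chr7:97412938-97417730, mm10, - strand) was 166, 123 and 121 FPKM in WT (137 ± 25.4, SD, n = 3) and 233, 271 and 370 FPKM in Trim11+/- (291 ± 71.1, SD, n = 3), from 2653 to 8713 reads. All 3 Trim11+/- values were above all 3 WT values, and the ratio of means was 2.13. It was the 1 of 32 members called, where 3.61% of all genes were called, so calls were no more frequent among members than over all genes. Its limma log2 change was 1.08 ± 0.21 (unadjusted p = 0.00165, adjusted p = 0.486), and it did not pass the adjusted threshold. It stayed higher by 0.89 to 1.22 (log2) with each tumor left out in turn, a direction that is fixed once the values do not overlap. An exact two-sided permutation test of 3 against 3 gave p = 0.1, the smallest this design allows. The sum of 5 basal epithelial markers also differed between genotypes without overlap, at 316, 127 and 183 FPKM in WT and 89.6, 59.6 and 85.4 FPKM in Trim11+/-. Among them the ratio of means was 0.218 for Krt5, 0.533 for Krt14 and 0.546 for Trp63, without overlap. It was 0.346 for Acta2 and 0.470 for Mylk, but for both the genotypes overlapped. The first WT tumor was highest for Acta2 (138 FPKM) and Mylk (9.86 FPKM). The part of basal cells in the Thrsp difference was not tested.

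At an unadjusted p under 0.05 alone 3 of 32 members passed, where 6.94% of all genes passed, and the other 2 were cholesterol enzymes that moved in opposite directions. Mvd was 13.0, 12.01 and 9.22 FPKM in WT and 6.44, 7.46 and 9.66 FPKM in Trim11+/-. The lowest WT tumor lay below the highest Trim11+/- tumor, and the change was -0.49 ± 0.18 (limma adjusted p = 0.696). Dhcr7, which catalyses the last step to cholesterol, was 10.9, 9.99 and 11.9 FPKM in WT and 12.3, 15.4 and 14.1 FPKM in Trim11+/-, without overlap and higher by 0.32 ± 0.12 (limma adjusted p = 0.696). Genotypes did not overlap in 4 of 32 members (12.5%, against 13.4% of all genes), the others being Mvk and Ebp, both lower in Trim11+/- (Mvk 4.40 to 4.85 against 3.77 to 4.38 FPKM, Ebp 21.5 to 22.7 against 21.1 to 21.5 FPKM, nearly touching). Single tumors moved these counts. Without WT1 Fads1 was also called lower (4.36% of all genes), and without WT3 (3.47% of all genes) or Trim11+/- 3 (4.60% of all genes) Mvd was. The unadjusted p was passed by 5 members without Trim11+/- 3 (8.64% of all genes) and by 1 without WT2 or without Trim11+/- 2.

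**Figure D3:**
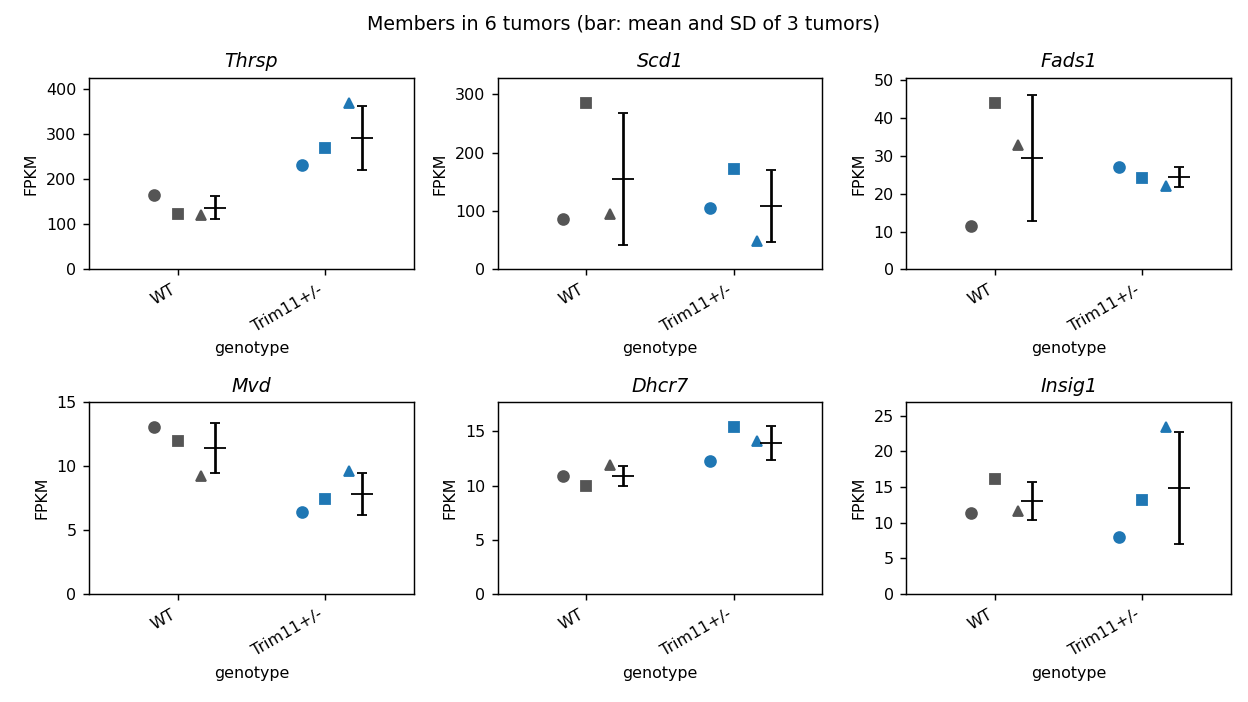
FPKM of 6 members in the 6 tumors, on axes that start at 0, with 1 symbol per tumor in the order 1, 2, 3 and a bar with whiskers for the mean and SD of 3 tumors. Thrsp is higher in every Trim11+/- tumor, while Scd1, Fads1 and Insig1 spread more within a genotype than between genotypes.

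The remaining members did not separate the genotypes. Over the 14 cholesterol genes the median log2 change was -0.05 (-0.10 without Trim11+/- 3, 0.036 without Trim11+/- 1), and over the 15 fatty acid genes also -0.05 (-0.21 without WT1, 0.044 without WT2). Hmgcs1 was 20.5, 15.7 and 16.6 FPKM in WT and 12.8, 13.8 and 17.0 FPKM in Trim11+/-, a change of -0.26 ± 0.15 (limma adjusted p = 0.756). Sqle was 14.7, 10.07 and 12.001 FPKM in WT and 10.04, 13.4 and 14.1 FPKM in Trim11+/-. Srebf2 was 21.7, 18.1 and 18.9 FPKM in WT and 18.4, 19.8 and 20.9 FPKM in Trim11+/-, with the Trim11+/- values inside the WT range. Srebf1 was 137, 259 and 224 FPKM in WT and 277, 287 and 203 FPKM in Trim11+/- (0.34 ± 0.26), with the first WT tumor low. Insig1 was 11.4, 16.1 and 11.7 FPKM in WT and 8.03, 13.2 and 23.4 FPKM in Trim11+/-. The third Trim11+/- tumor was also the highest for Cyp51 (17.4 FPKM, others 8.01 to 13.1), Idi1 (11.4 FPKM, others 6.85 to 9.32) and Acly (94.8 FPKM, others 65.4 to 76.6), and 12 of its 14 cholesterol genes were above the 6-tumor mean. The first Trim11+/- tumor had 1 of 14 above that mean.

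**Figure D4:**
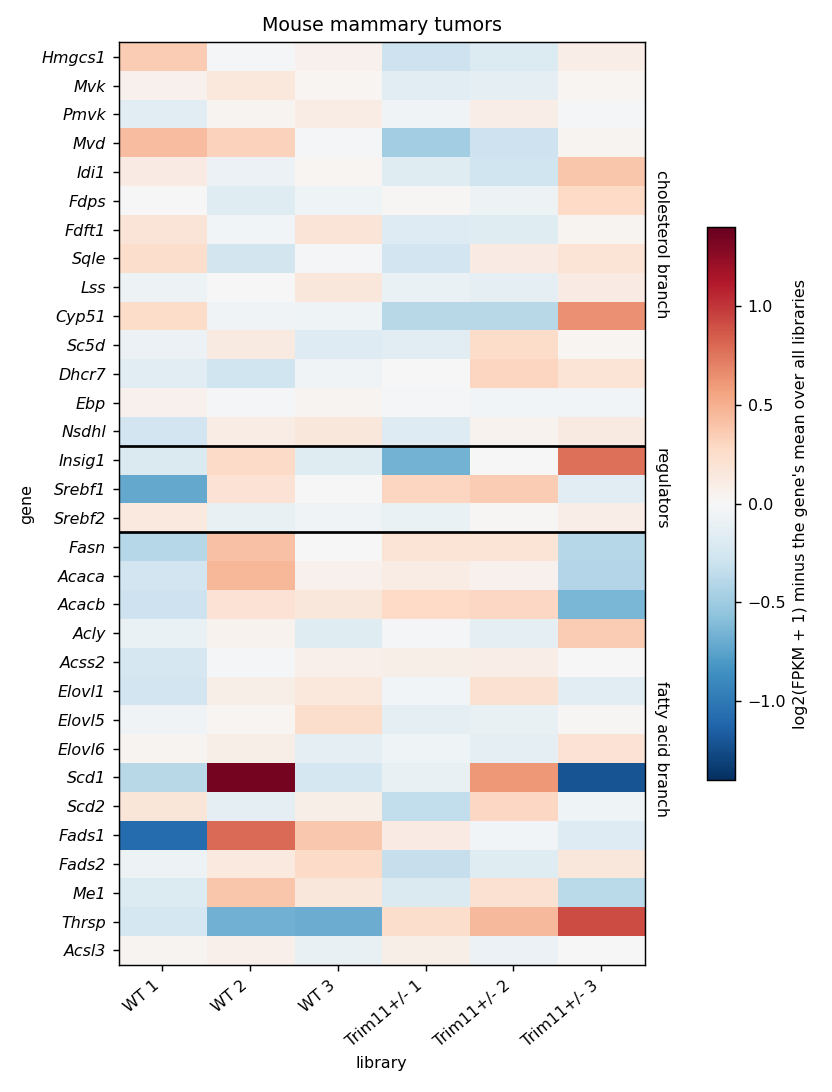
Difference of log2(FPKM + 1) of each mouse member from its mean over the 6 tumors, with genes in rows by branch and tumors in columns. Thrsp changes sides between the genotypes, whereas Scd1, Fads1, Insig1 and Cyp51 change from tumor to tumor within a genotype.

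The tumors differed in the level of adipocyte markers. In bulk tissue fewer cells of a type and less RNA per cell cannot be told apart. The sum of 8 adipocyte markers, all present, was 57.6, 415 and 92.6 FPKM in WT and 345, 185 and 29.3 FPKM in Trim11+/-, with Adipoq from 1.48 to 29.3 FPKM. Of the 15 fatty acid genes 5 were highest in the second WT tumor, which had the most of these markers (33.3%, against 14.8% of all genes), and 4 were lowest in the third Trim11+/- tumor, which had the least (26.7%, against 20.9%). The 3 that follow were described after their values were seen. Acaca, the cytosolic acetyl-CoA carboxylase, was 3.89, 7.11 and 5.14 FPKM in WT and 5.35, 5.14 and 3.43 FPKM in Trim11+/-. It followed the order of the adipocyte sum over the 6 tumors, except that the third WT and second Trim11+/- tumors were level. Fasn was 22.4, 40.1 and 29.9 FPKM in WT and 34.3, 34.1 and 22.5 FPKM in Trim11+/-, in that order but for its 2 lowest tumors. Scd1, the desaturase form abundant in adipose tissue, was 85.4, 286 and 94.6 FPKM in WT and 105, 171 and 48.2 FPKM in Trim11+/-, highest and lowest in the tumors with the most and least adipocyte signal. Its change between genotypes, -0.47 ± 0.60, was within its error. Scd2 was 129, 104 and 121 FPKM in WT and 90.2, 140 and 110 FPKM in Trim11+/-, and did not follow the sum.

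**Figure D5:**
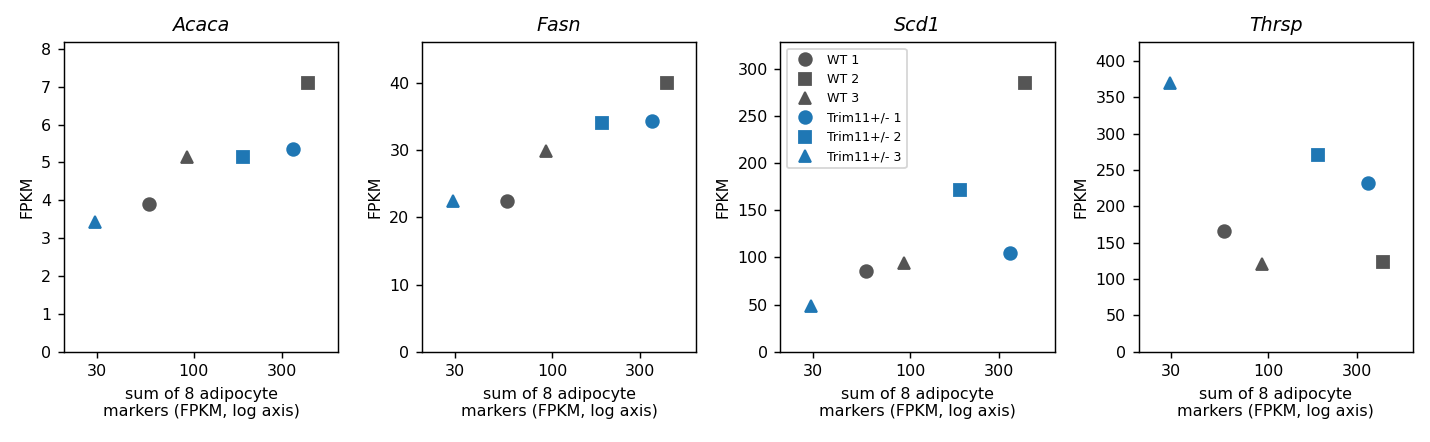
FPKM of Acaca, Fasn, Scd1 and Thrsp in the 6 tumors (vertical axes, from 0) against the sum of 8 adipocyte markers in FPKM (horizontal log axis), with symbols by tumor and grey for WT and blue for Trim11+/-. Acaca, Fasn and Scd1 are highest in the tumor with 415 FPKM of markers, whereas Thrsp is highest at 29.3 FPKM.

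Fads1, which spread 3.89 times, was 11.3, 44.1 and 32.8 FPKM in WT and 27.1, 24.3 and 22.0 FPKM in Trim11+/-, with the first WT tumor lowest. Its change of -0.07 ± 0.45 was far within its error. Thrsp was highest in the third Trim11+/- tumor, with the least adipocyte signal, and second highest in the second Trim11+/- tumor, where Scd1 was also second highest. The sum of 6 milk genes was 1707, 3655 and 3584 FPKM in WT and 2580, 2600 and 1389 FPKM in Trim11+/-, and the sum of 4 skeletal muscle markers was 0.679 to 218 FPKM. Csn3, which makes up most of the milk sum, and Lalba were lowest in the third Trim11+/- tumor, while Wap was highest there. The part of these cell types and of milk genes in the members' values was not tested.

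Other genes of the same pathways, also listed with earlier results known, were 12 human and 13 mouse sterol genes and 14 human and 15 mouse fatty acid genes. In the tumors, where 3.61% of all genes were called, 0 of 13 sterol genes were called and 1 of 15 fatty acid genes was, Acsl4, which activates arachidonate (60.1, 102 and 98.4 FPKM in WT, 144, 120 and 133 FPKM in Trim11+/-, 0.64 ± 0.21, limma adjusted p = 0.671). All 3 Trim11+/- values were above the WT values. In the cell lines 1 of these genes was called in 1 of the 5 limma comparisons, ACAT2, the cytosolic thiolase that precedes HMGCS1, between KDM5C-KD and TRIM11-KD (4.25% of all genes). It was 41.3 and 42.1 FPKM in TRIM11-KD and 54.6 and 76.0 FPKM in KDM5C-KD, higher in the latter by 0.62 ± 0.18 (limma adjusted p = 0.494).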

How the data were processed

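RNA-seq was made from 7 MDA-MB-231 libraries and 6 mouse tumors. Per the study's methods, the authors aligned poly(A)-selected, non-directional paired reads with HISAT2 to hg19 or mm10 and computed FPKM per gene with Cufflinks, and the deposited tables hold FPKM values, 1 table per species. The submitters' processing notes instead name Bowtie, and list mm8 beside hg19 and mm10, so which aligner made these tables is not settled. Such values are not counts, so no count model was the main test. Without strand, overlapping antisense genes cannot be told apart.

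Groups came from the labels. Symbols turned into dates (25, human) were dropped. Genes averaging 0.5 FPKM or more over their libraries were tested on log2(FPKM + 1) with limma 3.58.1 (lmFit and eBayes with trend, R 4.3.3) and Benjamini-Hochberg adjustment over 12636 human and 17328 mouse genes. Single tumor values were tested by exact permutation (scipy 1.17.1). Alternatives were other pseudocounts, filters, scalings, fits, the replicate block and leaving out each library. Scripts were tested on simulated data.

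The members and lists were chosen with earlier results of these data known. Values in every sample are given for HMGCS1, SQLE, INSIG1, SREBF1, SREBF2, FASN and SCD, for called members and, per branch, for the 3 members that differed most in each table. Others named (FDFT1, MVD, IDI1, ELOVL5, FADS1, FDPS, ELOVL6, Acaca, Mvk, Ebp, Cyp51, Idi1 and Acly among them) were chosen after their values were seen.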

Additional observations from a re-analysis of the deposited data

Results flagged for a closer look

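PMVK, IDI1 and ELOVL5 were singled out because both lines moved one way under a guide alone and both moved the opposite way under it when the other guide was present. Only 1 Control library stood behind each, and limma tests of the interaction (log2, SE) did not pass adjustment. For PMVK the interaction was 1.10 ± 0.32 (limma adjusted p = 0.879). This value covers the KDM5C guide without and with a TRIM11 guide as well as the TRIM11 guide without and with a KDM5C guide. PMVK was 27.0 FPKM in Control, 15.7 to 17.4 FPKM in TRIM11-KD, 13.5 to 18.3 FPKM in KDM5C-KD and 18.4 to 24.9 FPKM in DKD. For the TRIM11 guide without and with a KDM5C guide the interaction was 0.65 ± 0.20 for IDI1 and -0.30 ± 0.17 for ELOVL5 (limma adjusted p = 0.879 for each).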

How the results depend on the processing

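Of the alternatives to counts and medians, 322 left the value within the set bounds and 65 moved it. With 1 library left out, 10 of the 18 branch medians changed sign in at least 1 fit. For genes with an unadjusted p under 0.05, 109 alternatives kept the p under it and 47 did not, all in the same direction.

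Members with an unadjusted limma p under 0.05 numbered 0 for the KDM5C guide by eBayes without trend and 2 with 4 group means. With only the 2 groups compared they numbered 0 for KDM5C-KD against TRIM11-KD and 1 for DKD against KDM5C-KD. The shares over all genes under these settings are not given here, so the counts of this paragraph are not read as results about the members. Against Control, TRIM11-KD had 1 member called with a pseudocount of 1 and 0 at 2-fold, and by the mean of both lines KDM5C-KD had 2 and DKD 1. By limma with 4 group means, added after seeing the data, TRIM11-KD had 1 and KDM5C-KD 2.

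Same-numbered samples did not deviate together throughout (r = -0.33, 0.04 and -0.13 in tumors; 0.09, 0.37 and 0.27 in cell lines). In the tumors they share only a number, whereas TRIM11-KD and DKD lines of the same number also share a TRIM11 sgRNA (r = 0.37). With the replicate block members under an unadjusted p of 0.05 numbered 5 for DKD against TRIM11-KD, where 12.2% of all genes passed. They numbered 1 in tumors, 6 for KDM5C-KD against TRIM11-KD and 4 for DKD against KDM5C-KD. KDM5C-KD1 shares no guide with the other lines numbered 1, and the shares over all genes are not given for these counts. They are therefore not read as results about the members.

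With each library left out, in fits that assume a lone library varies like the others, tumors gave 1 to 2 members called, 1 to 5 with an unadjusted p under 0.05 and a fatty acid median of -0.21 to 0.044. The KDM5C guide gave 0 to 2 under that p. The TRIM11 guide gave 1 to 8 and a fatty acid median of -0.19 to 0.046. KDM5C-KD against TRIM11-KD gave 0 to 6 called, 0 to 11 under that p, a cholesterol median of 0.027 to 0.37 and a fatty acid median of -0.089 to 0.33. DKD against KDM5C-KD gave 0 to 5 called, 0 to 9 under that p, and medians of -0.22 to 0.12 and -0.15 to 0.084. DKD against TRIM11-KD gave 0 to 1 called and 0 to 2 under that p. Against Control, TRIM11-KD gave a fatty acid median of -0.18 to 0.057, KDM5C-KD gave 1 to 6 called with medians of -0.20 to 0.18 and -0.16 to 0.20, and DKD gave 0 to 1 called. The shares over all genes also shifted with the library left out. The ranges of counts in this paragraph are therefore not read as results about the members. Beyond the settings themselves, the cause was not tested.

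Other medians ranged from -0.10 to 0.036 (tumors, cholesterol), 0.024 to 0.14 and 0.015 to 0.17 (KDM5C guide) and -0.060 to 0.082 (DKD against Control, fatty acid).

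An alternative chosen after seeing the data, voom on the recovered tumor reads, gave 1 member called and 3 under an unadjusted p of 0.05. Depth is unknown for the cell lines, and 1 Control library gives those ratios no error.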
